A study of Homo sapiens with 16 samples.

Results

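Chromatin regions open with the solvent DMSO and not with sorafenib numbered 26467 of 220915 merged regions (12%) in human cells labelled Huh7. They came from 4 lists of ATAC-seq peaks. Peaks that overlapped by 1 bp or more were joined across the lists, on chromosomes 1 to 22 and X, and a joined region counted as DMSO-only when each of the 2 DMSO libraries had a peak in it and each of the 2 sorafenib libraries had none. Members were thus chosen by the peak calls alone, with no value of the RNA data. Huh7 is an established line from a hepatocellular carcinoma, sorafenib is a kinase inhibitor given against that cancer, and DMSO is the solvent used for the control cells. The ATAC-seq groups were DMSO (replicates 1 and 2 by title) and sorafenib (replicates 3 and 4). RNA-seq covered the same treatments with 3 libraries each, and a second experiment compared cells overexpressing MT1G, a metal-binding metallothionein, with empty-vector cells, again with 3 libraries each. The labels used here give no dose, no time and no word on separate cultures, so the p-values below measure the spread between libraries, which may be technical. Recovered depth ran from 16549330 to 26781600 reads per RNA library.

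ATAC-seq uses a transposase that cuts where DNA is free of nucleosomes, so its peaks mark open promoters and enhancers. Promoters of widely used genes are commonly open in most cell types, whereas enhancers lie farther from gene starts and differ more between cell states. Kinase signalling acts on many enhancers through transcription factors such as AP-1, the dimer of JUN and FOS proteins.

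Most markers of hepatocytes were nearly absent from these cells, and their identity as Huh7 rests on the labels and was not tested. ALB, the gene of serum albumin, had no read in any of the 12 RNA libraries, and APOB, APOC3, APOH and FGG had none in the 6 libraries of the sorafenib experiment. Of 24 hepatocyte markers, 2 reached a mean normalized read count of 10 there, the urea-cycle enzymes CPS1 and ASS1. AFP, another marker of the list, had means of 0.96 with DMSO and 1.56 with sorafenib. The summed level of the list, in normalized reads, was 54081 to 59117 in the DMSO libraries and 26809 to 27643 in the sorafenib libraries. Nearly all of it came from CPS1 (means of 17159 and 6588) and ASS1 (38673 and 20647.5), so it speaks for those genes only. Of 20 liver transcription factors, 11 reached a mean of 10, among them HNF4A (means of 340 with DMSO and 117 with sorafenib). Summed levels for stellate and fibroblast markers were 2360 to 2612 and 1155 to 1202, for endothelial markers 330 to 390 and 417 to 456, and for leukocyte markers 10.6 to 11.2 and 38.8 to 49.1. Whether a mixture of cells had a part in the results below was not tested, and fewer cells of a type cannot be told apart from less RNA per cell. MT1G itself was at 0 in the 3 vector and the 3 DMSO libraries, at 140, 130 and 179 normalized reads in the MT1G libraries and at 189, 158 and 194 with sorafenib.

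Promoters were a small part of the set, and 4 of those that lay under a DMSO-only region beside a gene whose RNA changed are printed first, because they show the range from AT-rich to CpG-rich sequence and from falls to rises. Each line gives the 250 bases before the RefSeq start on the gene's strand (GRCh38.p14, the same human build, hg38, that the peak lists use), 5′ to 3′, and capitals mark bases within 25 of a peak summit in either DMSO library.
CGA: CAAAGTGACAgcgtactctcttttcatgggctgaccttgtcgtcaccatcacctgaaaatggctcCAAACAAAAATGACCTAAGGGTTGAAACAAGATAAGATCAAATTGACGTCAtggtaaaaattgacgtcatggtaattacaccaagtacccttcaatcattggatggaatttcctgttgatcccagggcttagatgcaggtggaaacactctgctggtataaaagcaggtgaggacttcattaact
EVI5: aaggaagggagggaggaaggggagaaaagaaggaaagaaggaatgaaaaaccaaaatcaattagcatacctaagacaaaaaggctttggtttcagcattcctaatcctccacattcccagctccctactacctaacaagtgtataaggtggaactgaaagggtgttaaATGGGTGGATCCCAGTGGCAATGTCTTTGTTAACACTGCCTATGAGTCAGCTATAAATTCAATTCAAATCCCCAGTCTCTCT
TIPARP: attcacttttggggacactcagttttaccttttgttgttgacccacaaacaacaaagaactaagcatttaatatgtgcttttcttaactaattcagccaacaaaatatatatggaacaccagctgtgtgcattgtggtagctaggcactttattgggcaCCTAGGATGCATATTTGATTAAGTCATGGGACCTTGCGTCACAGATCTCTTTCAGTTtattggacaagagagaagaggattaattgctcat
HMX3: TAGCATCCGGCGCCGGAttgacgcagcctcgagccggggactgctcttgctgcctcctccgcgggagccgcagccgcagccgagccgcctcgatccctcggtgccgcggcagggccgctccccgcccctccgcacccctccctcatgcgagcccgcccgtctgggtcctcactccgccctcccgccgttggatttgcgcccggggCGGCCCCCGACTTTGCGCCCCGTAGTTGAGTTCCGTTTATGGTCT
The CGA window lies at chr6:87095057-87095356 on the minus strand and was overlapped for 294 of its 300 bases. Its DMSO summits fell 266 and 160 bases before the start. The CGA promoter is known for its cAMP-response elements. Their core letters TGACGT can be read in it, first in capitals under the replicate 2 summit, and the letters TATAAA stand near the start. In the EVI5 window, at chr1:92792361-92792660 on the minus strand, the summits fell 57 and 24 bases before the start and the capitals take in a match to the AP-1 letters TGANTCA. The TIPARP window, at chr3:156676414-156676713 on the plus strand, had summits 66 and 60 bases before the start, a GC content of 38% and no AP-1 match. HMX3, at chr10:123135720-123136019 on the plus strand, was the CpG-rich case, with a GC content of 73.7% and 39 CG dinucleotides in 300 bases.

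DMSO-only regions were narrower and more weakly enriched than regions with a peak in all 4 libraries. Their median width was 396 bp (quartiles 272 and 570), against 727 bp for the 75610 regions with a peak in all 4 libraries and 316 bp for the 14131 regions open with sorafenib and not with DMSO. A region found in all 4 joins peaks of 4 lists and a DMSO-only region those of 2, so these widths are not like for like. Fold enrichment at the summit, the authors' value from the peak lists, had a median of 4.86 in DMSO replicate 1 and 5.63 in replicate 2, and the same libraries gave 9.31 and 11.8 over regions found in all 4. Regions open with sorafenib and not with DMSO had medians of 4.50 and 4.49 in the 2 sorafenib libraries. A mean enrichment of 10 or more was reached by 2278 DMSO-only regions (8.61%) and by 54.3% of the regions found in all 4. These measures are close to those that chose the members, so they describe the set and are not tested.

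**Figure D1:**
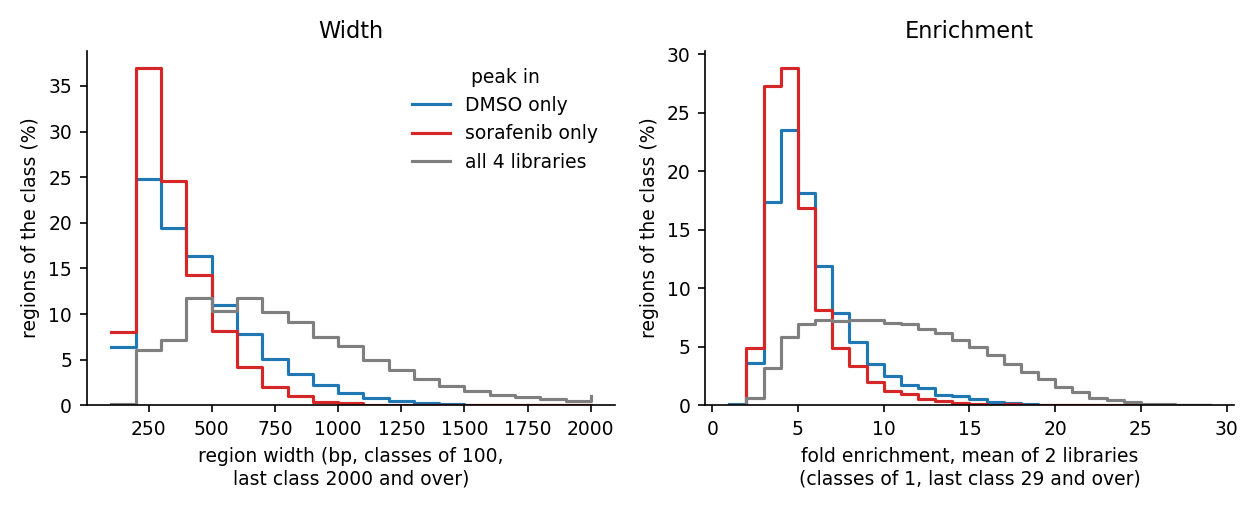
Width in bp (left) and fold enrichment (right, mean of the 2 DMSO libraries, or of the 2 sorafenib libraries for the sorafenib-only class), each as the percent of regions of a class per bin. DMSO-only regions (blue, median width 396 bp) and sorafenib-only regions (red, 316 bp) sit to the left of regions with a peak in all 4 libraries (grey, 727 bp).

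The 2 DMSO summits of a region lay a median of 20 bp apart, and 73.2% of the pairs were within 50 bp. In regions found in all 4 libraries the DMSO summits were closer, a median of 11 bp apart with 84.0% within 50 bp, and the 2 sorafenib summits of sorafenib-only regions were 29 bp apart with 65.8% within 50 bp. Enrichment in replicate 2 was the higher of the pair in 70.1% of regions, and the values correlated across the 26467 regions (Pearson's r = 0.831, Spearman's rho = 0.759), which share libraries and are not independent. A sorafenib peak was often not far away, with a median of 6013 bp to the nearest and 4019 regions (15.2%) within 1 kb of one.

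The peak lists themselves differed between the treatments. On chromosomes 1 to 22 and X the DMSO libraries had 131238 and 156757 peaks with median widths of 449 and 384 bp, and the sorafenib libraries had 139287 and 135665 peaks with median widths of 285 and 280 bp. Median fold enrichment over all peaks was 6.61 and 6.95 with DMSO and 5.51 and 5.56 with sorafenib, and the median −log10 q was 17.3 and 25.4 against 11.98 and 12.08. Sequencing depth of the ATAC-seq libraries is not given in the sources used here, and the part of these differences in the DMSO-only count was not tested. Just inside the rule, 359 DMSO-only regions had a weaker DMSO peak under a −log10 q of 2, where the lists end at about 1.31. Just outside it, 13246 regions with both DMSO peaks also had a peak in exactly 1 sorafenib library, with a median −log10 q of 6.396.

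Of the 115323 regions with a peak in both DMSO libraries, 23% lacked a peak in both sorafenib libraries. That share differed with strength and place. It was 54.9% at a mean enrichment under 3, 33.3% between 5 and 7.5, and 1.87% at 15 or more. Enrichment is close to the peak calls that chose the members, so the shares by strength describe the set and were not tested. By distance to the nearest RefSeq gene start, the share was 5.001% within 1 kb, 22.4% between 10 and 50 kb and 41.4% beyond 200 kb. The difference with distance stood in every class of enrichment: at 5 to 7.5, 19.2% of 6964 regions under 10 kb from a start were DMSO-only and 38.1% of 18971 regions farther away. At 10 to 15, the same shares were 2.67% of 8354 and 8.77% of 18349. Starts on chromosome 8 were not used here.

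**Figure D2:**
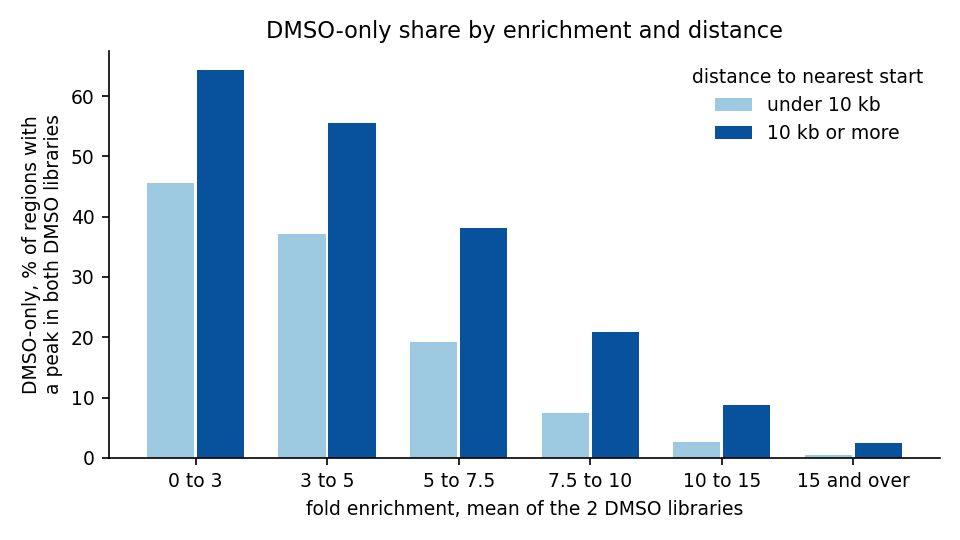
Percent of regions with a peak in both DMSO libraries that had none in either sorafenib library, by mean DMSO fold enrichment (x axis) and by distance to the nearest RefSeq start (light bars under 10 kb, dark bars 10 kb or more). Shares fall from 45.5% and 64.3% in the weakest class to 0.549% and 2.38% in the strongest, and the dark bar is the higher one in each class.

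DMSO-only regions were mostly distal. A RefSeq promoter window lay under 307 DMSO-only regions (1.23% of those on chromosomes with starts), against 15.2% of regions found in all 4 libraries and 1.599% of sorafenib-only regions. Median distance to a start was 41504.5 bp, compared with 21082 bp and 31752.5 bp in those classes, and 25.7% of DMSO-only regions were over 100 kb from any start, compared with 12.9% and 17.9%. Gene spans with 2 kb on each side held 65.2% of DMSO-only regions, 73.0% of regions found in all 4 and 64.4% of sorafenib-only regions.

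The DMSO-only share differed between chromosomes and was mostly higher where genes are sparse. On chromosome 4, 33.2% of regions with both DMSO peaks were DMSO-only (2011 of 6053), followed by chromosome 13 at 28.9%, chromosome 3 at 27.8% and chromosome 2 at 27.7%. At the other end stood chromosome 22 with 11.8%, chromosome 17 with 11.5% and chromosome 19 with 6.78% (202 of 2981). Chromosome 19 has the most protein-coding genes per Mb (24.8), and chromosome 4 has 4.05. Chromosome 18 was an exception, with 3.36 genes per Mb and a share of 24.2%, below those of chromosomes 2, 3 and X, which have more genes per Mb. Across the 23 chromosomes the DMSO-only share and coding-gene density gave Pearson's r = -0.793 and Spearman's rho = -0.839, and r = -0.763 without chromosomes 17 and 19. Points share the same libraries, and base composition moves with gene density, so these are descriptions.

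Chromosomes 4 and 19 stayed at the ends of the range away from gene starts and among strong peaks, while others changed places. With regions at least 10 kb from a start, the shares were 36.8% on chromosome 4 and 8.98% on chromosome 19, and r with gene density was -0.779. Chromosome 2 (31.3%) then stood above chromosome 3 (31.1%). With a mean enrichment of 7.5 or more the shares of chromosomes 4 and 19 were 15.7% and 0.759%, and chromosome 22 (2.02%) fell below chromosome 17 (3.11%). Sorafenib-only regions ran the other way as a share of regions with both sorafenib peaks, 7.73% on chromosome 4 and 18.99% on chromosome 19, with r = 0.552 over the 23 chromosomes.

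**Figure D3:**
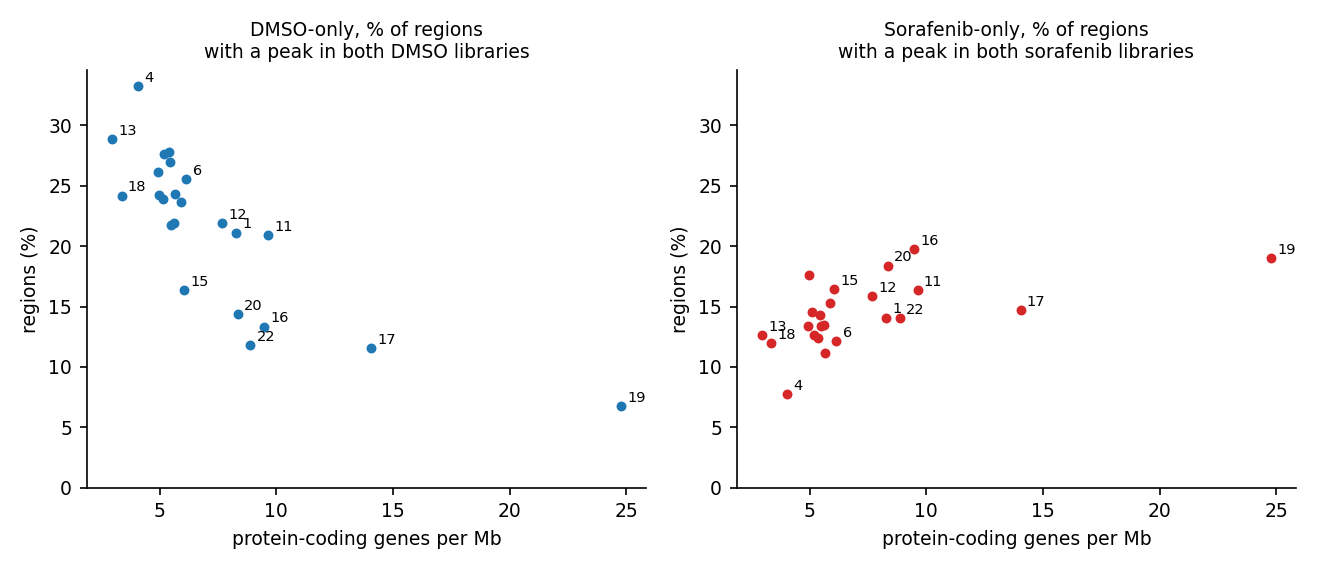
Each point is a chromosome, with protein-coding genes per Mb on the x axis and, on the y axis, the percent of regions with both DMSO peaks that were DMSO-only (left) or the percent with both sorafenib peaks that were sorafenib-only (right); numbers name the chromosomes at the margins of the cloud. The left panel runs from 33.2% on chromosome 4 to 6.78% on chromosome 19, and the right panel from 7.73% on chromosome 4 to 19.8% on chromosome 16.

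DMSO-only regions often had another nearby. Linking neighbours at most 50 kb apart put 12945 of them (48.9%) in 3025 clusters of 3 or more, with up to 18 members, left 7510 alone and put the rest in pairs. The share in clusters moved with the linking distance, from 18.7% at 20 kb (largest cluster 9) to 76.2% at 100 kb (largest cluster 37). Linking at 50 kb took in 86.7% of the more numerous regions found in all 4 libraries and 39.5% of sorafenib-only regions. Among the 942 clusters with at least 5 members, 748 held no sorafenib-only region, 113 held no region found in all 4 libraries, and 733 held more DMSO-only regions than regions found in all 4. These clusters were chosen by their number of DMSO-only regions, which favours such counts. Sorafenib-only regions were also fewer over the genome (14131 against 26467). The counts are therefore descriptions, and no expected share was worked out.

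The largest cluster, at chr3:117705878-118057744, held 18 DMSO-only regions, 4 regions found in all 4 libraries and no sorafenib-only region, over the non-coding gene LINC03051 and no coding gene. Another 12 regions in it had peaks in other sets of libraries. Next came 17 members at chr1:58745764-59092665 around JUN, the AP-1 subunit induced by stress kinases, together with 19 regions found in all 4 and 5 sorafenib-only regions. A further 37 regions in the JUN cluster had peaks in other sets of libraries. JUN was the coding gene there, and its RNA rose: 976, 856 and 897 normalized reads with DMSO against 13291, 13695 and 12509 with sorafenib, a log2 change of 3.85 (SE 0.06, limma adjusted p = 4.67e-17). All 3 sorafenib libraries stood far above the DMSO libraries. In the third cluster, 16 members at chr7:80253348-80612264 covered CD36, a fatty-acid receptor, and GNAT3, a taste G protein, both under 10 normalized reads in each of the 6 libraries. It also held 14 regions found in all 4 libraries, 14 with peaks in other sets of libraries and no sorafenib-only region.

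A further 4 clusters had 15 members each. At chr13:79392847-79590146 they lay over NDFIP2, an adaptor of NEDD4 ubiquitin ligases, and RBM26, an RNA-binding protein, with no sorafenib-only region. That cluster also held 12 regions found in all 4 libraries and 7 with peaks in other sets of libraries. NDFIP2 had 1531, 1575 and 1664 normalized reads with DMSO and 1155, 1242 and 1213 with sorafenib, a fall without overlap (log2 change -0.40, SE 0.06, adjusted p = 3.26e-05), and RBM26 fell by 0.54 on the log2 scale (adjusted p = 6.33e-06). RBM26-AS1, the non-coding antisense gene in the same cluster with 1 DMSO-only region of its own, had 10.1, 15.4 and 16.4 normalized reads with DMSO and 95.4, 90.6 and 107.9 with sorafenib, a rise without overlap (log2 change 2.75, SE 0.24, adjusted p = 3.04e-08). The sources used here do not say that strand was used in counting, and without it reads of antisense partners cannot be told apart. The cluster at chr2:161978036-162243654 spanned the peptidase genes DPP4 and FAP, the glucagon gene GCG and the bicarbonate transporter SLC4A10. FAP fell from 116, 135 and 119 to 59.1, 72.5 and 53.4 normalized reads (log2 change -0.996, SE 0.16, adjusted p = 3.81e-05), while DPP4, GCG and SLC4A10 did not reach the mean of 10 needed for the test. The others lay at chr3:30227628-30494310, over no coding gene, and at chr9:9574707-9820938 inside PTPRD. The chromosome 2 cluster also held 1 sorafenib-only region, 13 regions found in all 4 libraries and 6 with peaks in other sets of libraries. In the same order the chromosome 3 cluster held 2, 10 and 15 and the PTPRD cluster 0, 7 and 19.

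The 10 most enriched DMSO-only regions lay far from gene starts. First was chr3:164683364-164683893, with an enrichment of 16.8 and 27.4 in the 2 DMSO libraries, inside the span of the uncharacterised LOC105374191. Within a gene span lay 5 of the 10: that one and those in RERE, a nuclear-receptor corepressor (chr1:8733328-8734008), RNGTT, the mRNA capping enzyme (chr6:88730294-88731329), FBXL17, an F-box protein (chr5:108315604-108316324), and PDE1A, a calmodulin-dependent cyclic-nucleotide phosphodiesterase (chr2:182324497-182325265). The remaining ones were 15871 to 52039 bp from the nearest span. For the 9 regions on chromosomes with starts, the nearest start was 23117 to 518288 bp away.

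RNA of the genes around these regions moved in both directions. PDE1A had 423, 499 and 466 normalized reads with DMSO and 205, 221 and 214 with sorafenib, with no overlap (log2 change -1.11, SE 0.09, adjusted p = 2.74e-08). RNGTT fell by 0.42 and FBXL17 fell by 0.31 on the log2 scale (adjusted p = 0.000798 and 0.00639). RERE rose by 0.46 (SE 0.06, adjusted p = 7.65e-06), from 934, 916 and 922 to 1313, 1271 and 1231 normalized reads.

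Promoter windows under a DMSO-only region belonged to 314 genes, of which 211 were in the RNA table and 100 were tested. After sorafenib 46 of the 100 were lower and 23 higher at an adjusted p under 0.05, with a median log2 change of -0.19. Of all 14915 genes tested, 35.8% were lower and 34.4% higher, with a median of -0.02. Another promoter window of the same gene was open in all 4 libraries for 42 of the 100, and 94 had a region found in all 4 near the span. The genes named next are the 8 largest falls and 4 largest rises with a mean of at least 100 and groups that did not overlap; 52 of the 100 met those conditions. Groups did not overlap for 73% of all genes tested.

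CGA, the alpha subunit shared by the glycoprotein hormones, had 651, 641 and 727 normalized reads with DMSO and 209, 218 and 229 with sorafenib. The groups stood well apart, with a log2 change of -1.62 (SE 0.09, adjusted p = 1.22e-10), and CGA had no other window and no region found in all 4 libraries near its span. EVI5, a TBC-domain protein active in cell division, had 460, 465 and 455 against 155, 159 and 188 (log2 change -1.46, SE 0.10, adjusted p = 2e-09), also without overlap. Its span held 5 DMSO-only regions, and its other window was open in all 4 libraries. HMX3, a homeobox factor of the inner ear and hypothalamus, had 223, 229 and 288 against 95.4, 97.9 and 105 (log2 change -1.296, SE 0.13, adjusted p = 1.62e-07), and again every DMSO library was above every sorafenib library.

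Among genes with a mean of at least 100, the largest fall was that of PDE4A, a cAMP-specific phosphodiesterase, from 511, 485 and 511 to 141, 121 and 127 normalized reads (log2 change -1.95, SE 0.10, adjusted p = 5.19e-11). Its DMSO summits lay 291 and 288 bases before the window's start site, and 2 of its 5 windows were open in all 4 libraries. MARCHF9, a membrane-bound ubiquitin ligase, fell by 1.84, LZTS2, a leucine-zipper protein that restrains beta-catenin, fell by 1.82, ZBTB7A, a zinc-finger repressor, fell by 1.75, and CXXC5, a CXXC zinc-finger protein that restrains Wnt signalling, fell by 1.58 on the log2 scale. FAM20C, a secretory-pathway kinase below that mean (93.3 normalized reads), fell further, by 2.46 (adjusted p = 2.75e-08). Its DMSO-only region had an enrichment of 10.3 and 10.9. Some rises below that mean were larger than this fall, at low counts. LINC01882 (mean 14.7) rose by 4.91 (adjusted p = 3.32e-07) and CDH4 (mean 17.2) by 3.07 (adjusted p = 0.00015). FAM20C, LINC01882 and CDH4 were named after their values were seen. In MARCHF9, LZTS2, ZBTB7A and CXXC5 the DMSO libraries were all above the sorafenib libraries. Enrichment was low at 2 of these starts, 2.54 and 2.45 in the 2 libraries at MARCHF9 and 1.94 and 2.46 at CXXC5. ZBTB7A and CXXC5 each also had 1 sorafenib-only region near the span. Of the 7 windows of CXXC5, 3 were open in all 4 libraries, as was 1 of the 3 windows of LZTS2. The LZTS2 summits lay 186 and 201 bases after the start, past the end of the window.

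Some genes with a DMSO-only promoter region rose. TIPARP, a poly(ADP-ribose) polymerase induced by the aryl hydrocarbon receptor, had 926, 924 and 738 normalized reads with DMSO and 2395, 2489 and 2475 with sorafenib, all higher (log2 change 1.52, SE 0.08, adjusted p = 9.1e-11). The window under its DMSO-only region was 1 of 3, and 2 of the 3 were open in all 4 libraries. MALAT1, an abundant nuclear non-coding RNA, rose by 1.25 (SE 0.14, adjusted p = 9.18e-05), STON2, an endocytic adaptor, by 1.07 (SE 0.11, adjusted p = 1.82e-07) and ZNF124, a zinc-finger protein, by 0.77 (SE 0.10, adjusted p = 6.41e-06). STON2 and MALAT1 likewise had another window open in all 4 libraries, whereas ZNF124 had a single window and summits 410 and 409 bases before its start site. MALAT1 also had 1 sorafenib-only region near its span.

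In the MT1G experiment 4 of the same 12 genes passed the test, 2 higher and 2 lower, beside 11.5% higher and 11.3% lower of all 13914 genes tested. CGA went the opposite way from its change with sorafenib, from 784, 935 and 939 normalized reads to 1611, 1601 and 1237 (log2 change 0.74, SE 0.11, adjusted p = 8.74e-05). TIPARP rose by 0.50 (SE 0.10, adjusted p = 0.000914), HMX3 fell by 0.48 (adjusted p = 0.0115) and LZTS2 fell by 0.29 (adjusted p = 0.0185). Without vector replicate 3 the HMX3 call was lost, and LZTS2 lost its call in 4 of the 6 fits that left a library out. The other 8 genes had an adjusted p of 0.0599 or more, although MARCHF9 was called without MT1G replicate 3 (adjusted p = 0.00973) and MALAT1 without MT1G replicate 1 (adjusted p = 0.0282).

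**Figure D4:**
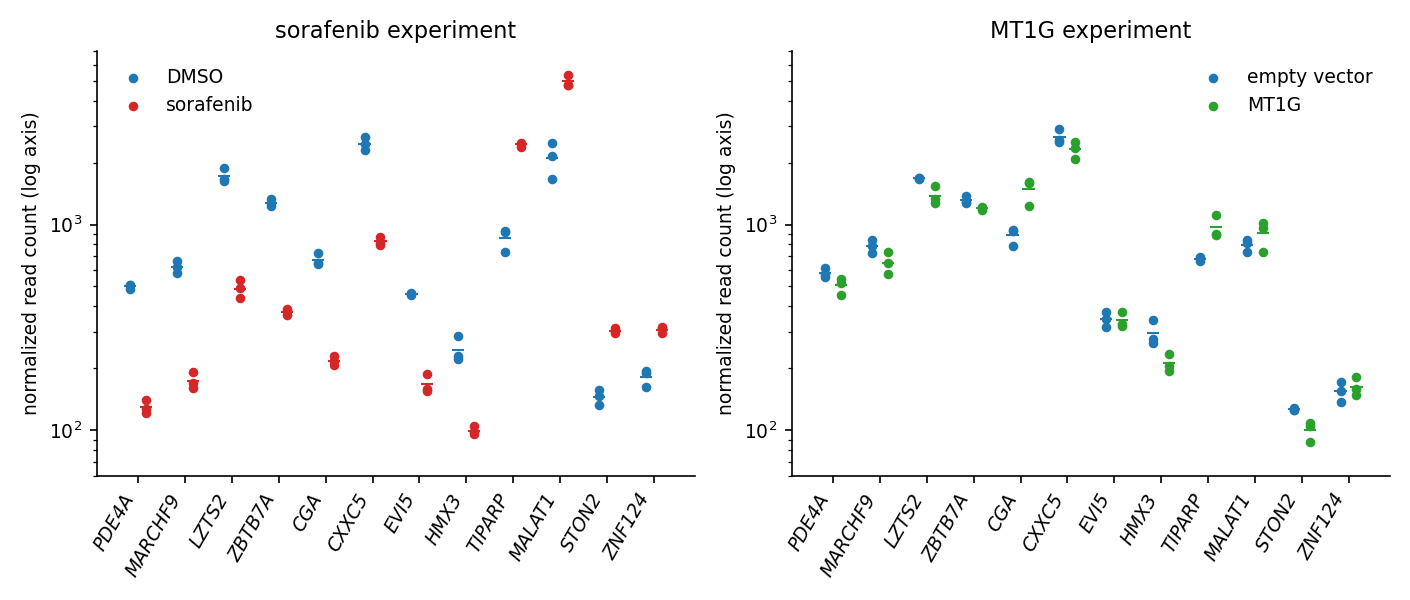
Normalized read count per library (points, log axis) and group mean (line) for the 12 named genes with a DMSO-only region over a promoter window, with DMSO and sorafenib on the left and empty vector and MT1G on the right. PDE4A to HMX3 are lower in all 3 sorafenib libraries and TIPARP to ZNF124 higher, and on the right CGA and TIPARP are higher with MT1G.

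Sequence of the 328 promoter windows under DMSO-only regions was AT-richer than that of all windows, and the 236 windows under sorafenib-only regions shared part of this. Median GC content was 47.0% under DMSO-only regions, 54.0% under sorafenib-only regions, 58.7% over all 34961 windows and 65.3% over the 15989 windows under a region found in all 4 libraries. The median number of CG dinucleotides was 4, 5, 14 and 26 in the same order. Letters were searched on both strands of the 300 bases, and overlaps between motifs were not removed. AP-1 letters TGANTCA were in 18.6% of windows under DMSO-only regions, 7.68% of all windows and 6.61% of windows under regions found in all 4. Forkhead letters TGTTTAC were in 6.402%, 3.42% and 2.65%, and TATAAA in 18.9%, 11.5% and 5.32%. GC-box letters GGGCGG were in 24.7%, 45.0% and 68.7%, and ETS letters CCGGAA in 6.402%, 17.3% and 28.99%. Under sorafenib-only regions GC-box letters were in 35.6%, ETS letters in 8.47%, TATAAA in 10.6% and forkhead letters in 1.69% (4 windows).

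Part of these contrasts went with base composition. Among windows with a GC content of 40 to 55%, AP-1 letters were in 19.4% of 144 windows under DMSO-only regions, 16.7% of 2408 under regions found in all 4, 24.8% of 113 under sorafenib-only regions and 12.3% of all 10409. Over all GC contents the sorafenib-only windows stood at 16.5% for AP-1, beside the 18.6% under DMSO-only regions. GC-box letters remained rarer under DMSO-only regions in that range (5.56%, against 23.8% under regions found in all 4, 12.02% of all windows and 14.2% under sorafenib-only regions). For TATAAA the contrast was gone there, with 15.3% under DMSO-only regions, 15.8% under regions found in all 4 and 16.3% of all windows. Forkhead letters were in 7.64%, 6.02% and 5.21% in the same order, 11 windows in the DMSO-only case. CRE core letters TGACGT, searched after the CGA window had been read, were in 3.66% of windows under DMSO-only regions and 7.97% of all windows over all GC contents. They were in 2.97% under sorafenib-only regions and 11.4% under regions found in all 4. With a GC content of 40 to 55% the shares were 4.17% under DMSO-only regions, 2.65% under sorafenib-only regions, 11.5% under regions found in all 4 and 6.63% of all windows.

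A DMSO-only region lay within 2 kb of the span of 10238 of 59084 RefSeq genes (17.3%), and 7812 of those had no sorafenib-only region. Long genes held the most: the median span was 35651.5 bp for the 7812 genes and 5602.5 bp for all. PTPRD, a receptor tyrosine phosphatase of neurons, held 45, PDE4D, a cAMP phosphodiesterase, 36, LRP1B, a lipoprotein-receptor relative, 31, the cadherin CDH18 30, and dystrophin (DMD) and the photoreceptor gene EYS 26 each. Of these, LRP1B had no sorafenib-only region. Other leading genes without one were MACROD2 with 25, PCDH15 and ROBO2 with 24, CHRM3 with 20, MARCHF1 with 19, PDE1A and NAALADL2 with 18 and ASTN2 with 17.

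Of the leading genes named without a sorafenib-only region, 6 were tested with sorafenib and 2 passed, both lower, beside 35.8% lower and 34.4% higher of all genes tested. PCDH15, a protocadherin of hair cells, ROBO2, a Slit receptor, and NAALADL2 did not reach the mean of 10. LRP1B, MACROD2, CHRM3 (a muscarinic receptor) and ASTN2 did not pass the test, with log2 changes of 0.11 (SE 0.29), 0.07 (SE 0.18), 0.05 (SE 0.17) and -0.37 (SE 0.21). MARCHF1, a ubiquitin ligase, had 52.9, 63.6 and 39.3 normalized reads with DMSO and 32.9, 35.3 and 30.97 with sorafenib, a fall of 0.61 (adjusted p = 0.0234) that 3 of the 6 fits leaving out a library did not call. PDE4D fell from 1114, 1247 and 992 to 442, 434 and 442 (log2 change -1.34, SE 0.08, adjusted p = 6.81e-10), and PTPRD from 1170, 1194 and 1032 to 639, 676 and 687 (-0.76, SE 0.07, adjusted p = 1.59e-07). EYS, at low counts, rose from 6.75, 6.75 and 4.37 to 10.97, 15.4 and 24.6 (1.32, SE 0.42, limma adjusted p = 0.00969).

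With sorafenib, the shares of genes called near DMSO-only regions were close to those of all genes. Of the 7812 genes, 5437 were in the RNA table, 926 of them had no read in the 6 libraries, and 3227 were tested. Among these 3227, 1278 (39.6%) were lower and 1009 (31.3%) higher, with a median log2 change of -0.09. Over all 13537 tested genes that could be placed on the genome, 37.8% were lower and 32.8% higher, with a median of -0.05. With 3 or more DMSO-only regions, 40.4% were lower and 29.03% higher.

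The shares moved with gene length. Tested genes with a span of 100 to 200 kb were 43.0% lower and 25.6% higher whatever their regions, and those of that length near DMSO-only regions were 42.8% lower and 24.7% higher. Genes of 20 to 50 kb near DMSO-only regions were 35.6% lower and 34.3% higher, against 35.9% and 35.3% of all genes of that length. Below 20 kb the shares lower were 40.1% near DMSO-only regions and 37.3% over all genes of that length.

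The second RNA experiment gave a larger contrast. Of 13914 genes tested with MT1G against vector, 11.5% were higher and 11.3% lower. Over the 12960 tested genes that could be placed on the genome, 12.1% were higher and 11.9% lower. Near DMSO-only regions, 596 of 3145 genes (18.95%) were higher and 259 (8.24%) lower, with a median log2 change of 0.09 against a median of 0.00 over all. The share higher was 16.3% with 1 DMSO-only region, 19.4% with 2 and 26.8% with 3 or more, while the share lower was 9.67%, 8.24% and 3.78%. Genes near sorafenib-only and no DMSO-only regions had the reverse balance, 8.24% higher and 18.6% lower of 1105. Neither the ATAC-seq libraries nor the RNA of the sorafenib experiment share samples with this comparison.

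Here too the shares moved with gene length. Genes with 1, 2 and 3 or more DMSO-only regions had median spans of 41549, 84549 and 182749 bp, and genes of 100 to 200 kb were 19.5% higher and 7.67% lower whatever their regions. Within 20 to 50 kb, genes near DMSO-only regions were 17.6% higher and 10.1% lower (733 tested), genes near sorafenib-only regions 6.82% and 21.0% (352), and genes with neither but a region found in all 4 libraries 11.3% and 11.3% (2126). Within 50 to 100 kb the same pairs were 21.9% and 6.10%, 8.30% and 13.4%, and 16.3% and 6.70%. Below 20 kb the balance turned, and more genes near DMSO-only regions were lower (14.7%, 84 of 571) than higher (11.6%, 66), with a median log2 change of -0.06, beside 15.2% lower and 6.83% higher of all genes of that length. Genes near sorafenib-only regions were 7.23% higher and 22.3% lower there, and genes with neither 6.74% and 15.7%.

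**Figure D5:**
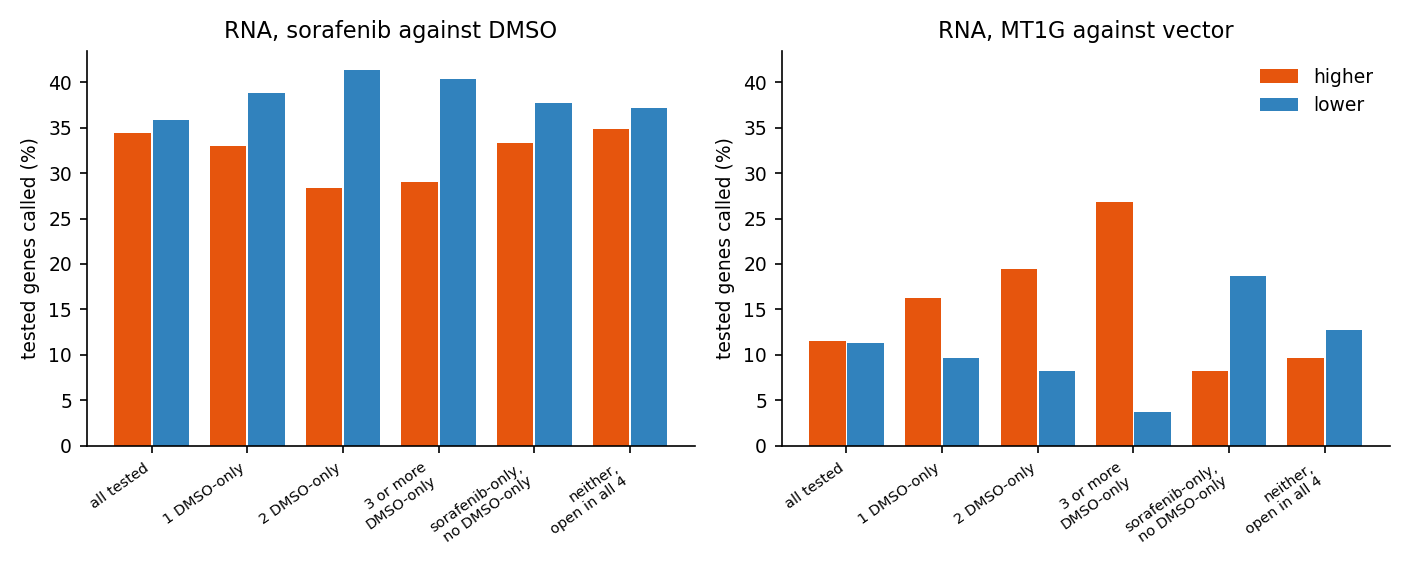
Percent of tested genes called higher (orange) or lower (blue) by limma at an adjusted p under 0.05, by the regions within 2 kb of the gene span, for sorafenib against DMSO (left) and MT1G against vector (right). On the right the share higher rises from 11.5% of all genes to 26.8% with 3 or more DMSO-only regions, and genes with sorafenib-only regions are 18.6% lower; on the left the share lower runs from 35.8% to 41.4%.

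MT1G replicate 2 stood above its fellows over these genes. The median difference from the vector mean was 0.05, 0.16 and 0.06 (log2) in MT1G replicates 1, 2 and 3. Without replicate 2, 394 genes near DMSO-only regions were higher (12.6%, beside 7.91% of all genes), and with 3 or more regions 18.02% were higher and 3.97% lower. Leaving out vector replicate 2 gave 384 higher and 136 lower, and leaving out vector replicate 3 gave 365 and 133. In each of the 6 fits that left a library out, the share higher near DMSO-only regions was above that of all genes.

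Among the leading genes without a sorafenib-only region, 1 of 6 tested passed with MT1G. That was LRP1B, which rose from 14.3, 7.16 and 15.2 to 31.8, 32.6 and 26.3 normalized reads (log2 change 1.301, SE 0.34, adjusted p = 0.00987), a call lost without MT1G replicate 2 (adjusted p = 0.0547) or vector replicate 2 (adjusted p = 0.0584). MARCHF1 (0.59, SE 0.33, adjusted p = 0.209), ASTN2 (0.15, SE 0.20), PDE1A (0.11, SE 0.12), CHRM3 (0.10, SE 0.18) and MACROD2 (-0.06, SE 0.21) did not pass. The long genes that follow also held sorafenib-only regions, 2 in PDE4D, 3 in dystrophin and 6 in PTPRD, and so are outside the class counted above. PDE4D had 782, 749 and 757 normalized reads with vector and 1265, 1636 and 1333 with MT1G, with no overlap (log2 change 0.88, SE 0.10, adjusted p = 1.3e-06). Dystrophin had 1148, 1158 and 1063 against 1928, 2292 and 2055 (0.89, SE 0.09, adjusted p = 1.93e-07), although with sorafenib it fell by 0.21 (adjusted p = 0.00672). PTPRD, with the most DMSO-only regions, did not pass the test (-0.08, SE 0.10, adjusted p = 0.584).

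None of the 4 genes in the series title, DNMT1, MT1G, KLF4 and CA9, had a DMSO-only region within 2 kb. Within 100 kb, 2 of 47 merged regions were DMSO-only at DNMT1, the maintenance DNA methyltransferase, and 4 of 36 at MT1G. At KLF4, a zinc-finger transcription factor, 3 of 21 were, and at CA9, a carbonic anhydrase induced by hypoxia, 3 of 26. Over all merged regions the share was 12%. Sorafenib-only regions within 100 kb numbered 8, 3, 0 and 1 in the same order, and DNMT1 had 1 within 2 kb. The strongest of the DMSO-only regions, with an enrichment of 11.03 and 14.8, was chr9:107471357-107472035, 12817 bp from KLF4. KLF4 RNA rose with sorafenib (log2 change 3.00, SE 0.10, adjusted p = 4.87e-13). CA9 had DMSO-only regions 4115, 14197 and 46830 bp away, and its RNA fell with sorafenib from 245, 426 and 176 normalized reads to 3.38, 9.97 and 1.07 (adjusted p = 0.000294).

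The gene lists differed in how many members had a DMSO-only region, partly with their lengths. Matrix and mesenchymal genes led with 13 of 20 (median span 46372 bp), ERK output genes had 9 of 19 (13319 bp), and NF-kB inflammatory genes 1 of 18 (6092.5 bp), beside 17.3% of all RefSeq genes. That 17.3% takes in many short genes (median span 5602.5 bp) and is a low yardstick for these lists. Of the 13537 placed genes tested with sorafenib, 3227 had a DMSO-only and no sorafenib-only region, and a further 1211 had both kinds. In the matrix list, 12 of the 13 were tested with sorafenib, and 9 were lower and 2 higher; among all 19 tested members, 10 were lower and 6 higher. CDH2, the N-cadherin gene, held 8 DMSO-only regions and fell by 0.20 (adjusted p = 0.0146), a call lost without sorafenib replicate 1 or DMSO replicate 1. SPOCK1, a matrix proteoglycan, fell by 0.60 (adjusted p = 1e-04) and, in the other experiment, rose from 116, 117 and 109 to 1730, 1746 and 1577 normalized reads with MT1G (log2 change 3.87, SE 0.10, adjusted p = 6.64e-17). ZEB2, a repressor of epithelial genes with 3 DMSO-only regions, rose by 1.40 (SE 0.13, adjusted p = 6.49e-08).

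Antioxidant genes of the NRF2 list had DMSO-only regions at 7 of 21 members, and all 7 were lower with sorafenib, as were 18 of the 20 tested. ME1, malic enzyme, held 6, the strongest of them (chr6:83271251-83272168) at an enrichment of 13.1 and 15.2. Its RNA went from 1168, 1271 and 1263 to 771, 839 and 854 normalized reads (log2 change -0.59, SE 0.07, adjusted p = 1.48e-06). The glutathione-synthesis gene GCLC and the thioredoxin reductase gene TXNRD1 also fell, by 0.60 and 0.43 on the log2 scale. Sterol-synthesis genes had them at 7 of 22, and those 7 were lower too, beside 21 of all 22.

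ERK output genes went the other way, with 6 of 8 tested members near DMSO-only regions higher and 1 lower, beside 14 higher and 2 lower of all 18 tested. The one that fell was CCND1, cyclin D1, with a DMSO-only region of 1447 bp at the end of its span (chr11:69654461-69655907), from 2156, 2152 and 2022 to 1492, 1464 and 1569 normalized reads (log2 change -0.48, SE 0.06, adjusted p = 2.58e-06). TRAF1, the NF-kB target and signalling adaptor that was the one member of its list with a DMSO-only region, also had a sorafenib-only region and rose by 4.40 (SE 0.14, adjusted p = 1.87e-13). Hepatocyte markers had DMSO-only regions at 7 of 24. FGB, a fibrinogen chain with a mean under 1 normalized read in both groups, held 2 of them, the stronger at an enrichment of 8.66 and 12.3. CPS1 held 4, with none open only with sorafenib, and its level was 17444, 17553 and 16480 normalized reads with DMSO and 6424, 6617 and 6723 with sorafenib (log2 change -1.38, SE 0.06, adjusted p = 3.12e-12).

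The remaining lists had DMSO-only regions at 8 of 20 liver transcription factors, 5 of 20 glycolysis genes, 5 of 20 hypoxia targets, 4 of 18 KLF and SP factors, 6 of 15 carbonic anhydrases and 4 of 20 interferon-stimulated genes. Markers of other cell types had them at 4 of 10 stellate and fibroblast, 6 of 10 endothelial and 1 of 10 leukocyte genes. KLF7 and SP4, zinc-finger transcription factors, held some of the stronger ones, with enrichments of 11.4 and 16.2 at KLF7 (chr2:207121610-207122276) and 11.4 and 12.6 at SP4 (chr7:21475971-21477321). SP4 rose with sorafenib by 0.91 on the log2 scale (adjusted p = 3.07e-05), and KLF7 did not pass the test (log2 change 0.09, adjusted p = 0.528).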

How the data were processed

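ATAC-seq (2 DMSO and 2 sorafenib libraries) and RNA-seq (4 groups of 3) were analysed from deposited files. Per the submitters' processing notes, the tools included Bowtie2 2.4.1, MACS2 2.2.7.1, HISAT2, featureCounts 1.6.1 and DESeq2 with hg38. Peaks were called per library by the authors; fold enrichment (a ratio, used as the signal of a peak), −log10 p and q values and an integer score were deposited for each. RNA values were deposited by the authors as normalized read counts, a signal not scaled for gene length; low values stepped in whole reads, and 100% of values came out whole within 0.001. Treatment and control columns 1 to 3 were taken to be the numbered replicates of the titles.

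Peaks were merged with Python 3.11.15. A region's enrichment in a library is the highest of its peaks, and a gene is near a region within 2 kb of its RefSeq span (GRCh38.p14, matched by symbol or synonym). RNA was tested with limma 3.58.1 (trend, robust) on log2(value + 1) over genes with a mean of at least 10 in the 6 libraries, two-sided, with Benjamini-Hochberg adjustment over all genes tested and a threshold of 0.05; the script was tested on simulated data. Fold changes are on that scale, which understates low genes. Peak lists without counts allowed no test of accessibility. Named genes were the 10 with the most DMSO-only and no sorafenib-only region, those nearest the 10 strongest regions, 8 falls and 4 rises with a DMSO-only promoter region, the title genes, up to 3 members of each of 15 lists, and genes in the largest clusters. The genes with the most DMSO-only regions regardless of sorafenib-only regions, FAM20C, LINC01882, CDH4 and CRE letters were added after values were seen. A gene that the naming rule gave is not reported here. Members and lists were chosen with earlier results of these data known.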

Additional observations from a re-analysis of the deposited data

How the results depend on the processing

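The number of DMSO-only regions was 19954 to 27341 under stricter or equal-sized peak lists, wider merging and an overlap of at least 0.5 of the shorter peak, and 32676 to 52393 when 1 ATAC-seq library was left out, the highest without DMSO replicate 1. On chromosome 4 the DMSO-only share was 30.99% with equal numbers of peaks and 31.8% with merging over 500 bp, alternatives chosen after seeing the data. For genes near DMSO-only regions, the median change with sorafenib was 0.038 (log2) with no filter on low values, -0.059 with DESeq2 and -0.051 with edgeR, beside 0.26, 0.0028 and 0.011 over all genes under the same settings, and -0.11 over genes with at least 2 regions, and -0.097 to -0.062 with a library left out; the count with at least 2 regions, a smaller set, was 368 higher and 524 lower. With MT1G, leaving out a library gave 365 to 651 higher and 133 to 301 lower near DMSO-only regions, and 1007 to 1818 higher and 764 to 2013 lower over all genes; at least 2 regions gave 288 and 76.

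Uncalled genes turned sign when a library was left out: with sorafenib, LRP1B ranged from -0.11 to 0.31, KLF7 from -0.025 to 0.18, MACROD2 from -0.080 to 0.21 and CHRM3 from -0.076 to 0.22, and with MT1G, EVI5 ranged from -0.090 to 0.038 (0.0011 with TMM factors), ZNF124 from -0.0018 to 0.15 and MACROD2 from -0.18 to 0.0055. The cause was not tested. With DESeq2, MARCHF1 lost its sorafenib call (-0.63). Same-numbered RNA libraries did not deviate together (correlations from -0.140 to 0.043), so numbers were not taken as pairs; with the replicate block, 981 genes near DMSO-only regions were higher and 1253 lower with sorafenib, and 644 and 243 with MT1G.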
